A study of Mus musculus with 2 samples.

Results

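C1q-high macrophages without Mgl2 are tumour macrophages that carry much RNA of the complement protein C1q and none detected of Mgl2, a lectin gene that marks another group of macrophages in these tumours. They were chosen from the molecule counts (UMIs, 1 per captured RNA molecule) of each cell by a fixed rule. A cell had to hold at least 500 UMIs with at most 10% from mitochondrial genes, at least 10 UMIs of C1qa, C1qb and C1qc together, at least 1 UMI of Csf1r, the receptor of the macrophage growth factor, and 0 UMIs of Mgl2. It could hold at most 2 UMIs of Arg1 (arginase), at most 2 of Retnla, Ear2 and Fcrls together, at most 2 of the cell-cycle genes Mki67, Top2a, Birc5 and Pclaf together, at most 1 of Ctsk, and 0 of Cd3d, Cd3e and Cd3g, which mark T cells. The rule found 929 cells among the 67031 that passed the UMI and mitochondrial filters, 582 in the BiDT library and 347 in the Ctrl library. These cells are called members below. Since measured values chose them, the genes of the rule are described and not compared, and 5 markers given for these cells (C1qa, Ms4a7, Cd72, Ch25h and Ccl12) are likewise a description.

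Mice carried tumours of the line MC38, which derives from a mouse colon carcinoma, and the cells were taken at day 19 after inoculation. The BiDT group was labelled as treated with BiDT, a name that the labels do not spell out, and the Ctrl group as control. The treatment text, which names BiDT, is the same for both, and strain, sex, age, dose and schedule are not given in the sources used here. The title of the series names a fusion of an antibody against TIM3 with an interferon, and asks about T cells and dendritic cells of the tumour. Live CD45+ cells, that is leukocytes, were sorted from digested tumours of both groups, and each group gave 1 library, a pool of 5 biological replicates, both given batch 1. Differences between the groups therefore carry no test, and replicates cannot be set against each other. The 95% intervals cover counting error only, and "higher" and "lower" mean a ratio of at least 1.5-fold.

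C1q is the recognition molecule of the classical complement pathway, and outside the liver it is made largely by macrophages, which use it to coat dying cells and immune complexes for uptake. In tumours, macrophages rich in C1q are mostly monocyte-derived cells that have matured in the tissue, take up cell debris and present antigen. Type I interferons act through the receptor chains Ifnar1 and Ifnar2 on a transcription complex that includes Stat2 and Irf9 and binds a DNA motif, the interferon-stimulated response element (ISRE), in front of its target genes.

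The genes with the highest ratios in BiDT members included interferon targets whose promoters hold that motif, and 4 promoters are shown because they set 3 such genes beside Ch25h, a marker of these cells with no match. Each runs 5′ to 3′ on the gene's strand, with 250 bases before the start of transcription and 50 after it, from RefSeq (build GRCm38.p6, which is not the GRCm39 build named for the counts). Capitals mark each match to the core of the ISRE, searched as GAAA, any 2 bases and GAAA on either strand, the only motif searched. Ifit3b lies at chr19:34607707-34608006 (plus strand), Ifit3 at chr19:34583279-34583578 (plus strand), Ddx60 at chr8:61927837-61928136 (plus strand) and Ch25h at chr19:34475099-34475398 (minus strand).
Ifit3b: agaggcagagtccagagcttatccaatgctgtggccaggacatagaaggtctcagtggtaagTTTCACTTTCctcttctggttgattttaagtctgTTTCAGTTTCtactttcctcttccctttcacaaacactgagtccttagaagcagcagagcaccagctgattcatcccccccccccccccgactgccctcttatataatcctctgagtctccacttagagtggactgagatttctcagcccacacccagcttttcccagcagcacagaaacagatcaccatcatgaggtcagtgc
Ifit3: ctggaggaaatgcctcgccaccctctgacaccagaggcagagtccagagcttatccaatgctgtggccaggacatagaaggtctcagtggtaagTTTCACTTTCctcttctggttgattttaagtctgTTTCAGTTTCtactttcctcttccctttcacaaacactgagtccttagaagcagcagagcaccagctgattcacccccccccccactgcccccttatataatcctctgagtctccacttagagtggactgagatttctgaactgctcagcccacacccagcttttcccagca
Ddx60: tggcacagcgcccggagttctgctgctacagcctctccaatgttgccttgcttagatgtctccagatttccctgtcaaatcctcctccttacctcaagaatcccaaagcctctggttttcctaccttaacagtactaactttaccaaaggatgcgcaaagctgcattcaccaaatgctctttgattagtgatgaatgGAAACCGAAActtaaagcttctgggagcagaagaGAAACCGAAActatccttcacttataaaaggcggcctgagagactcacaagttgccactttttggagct
Ch25h: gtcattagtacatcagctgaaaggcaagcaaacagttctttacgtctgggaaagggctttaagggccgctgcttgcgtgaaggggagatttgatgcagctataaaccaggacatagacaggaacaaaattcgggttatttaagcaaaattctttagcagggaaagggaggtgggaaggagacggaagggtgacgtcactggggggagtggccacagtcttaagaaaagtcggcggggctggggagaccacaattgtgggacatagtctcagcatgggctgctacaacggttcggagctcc
Ifit3b, Ifit3 and Ddx60 each held 2 matches, while Ch25h held none in this window. The motif stood in 3.44% of all 32851 promoters in the table, and in 4.70% of the 6006 compared genes that matched a promoter.

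The libraries differed as wholes. The BiDT library held 34996 barcodes and a median of 2652 UMIs per barcode, the Ctrl library 34310 barcodes and 4126 UMIs, and 713 barcodes occurred in both, among them those of 6 BiDT and 2 Ctrl members. Members had a median of 3426 UMIs and 1596 genes in BiDT and 4722 UMIs and 1849 genes in Ctrl. Their median mitochondrial share was 0.676% in BiDT and 1.89% in Ctrl, and Malat1, a nuclear noncoding RNA, took 0.862% of their UMIs in BiDT and 0.463% in Ctrl. UMIs of the lymphocyte genes Nkg7, Gzma, Gzmb, Ncr1 or Trac were present in 262 of 582 BiDT members (45.0%, exact interval 40.9 to 49.2%) and 35 of 347 Ctrl members (10.1%, 7.13 to 13.7%). The same genes had a UMI in 42.3% of BiDT neutrophils and 57.2% of BiDT stromal cells, against 12.8% of Ctrl neutrophils and 16.5% of Ctrl stromal cells, so that shares of similar size stood in cells of other lineages of each library. The 5 NK cell markers summed to 235 CPM (CPM, the UMIs of a gene scaled to a common total of UMIs per group of cells) in BiDT members and 30.3 CPM in Ctrl members, against 4729.96 CPM in BiDT NK cells and 3714 CPM in Ctrl NK cells, and Ncr1 was at 0 in Ctrl members. The 5 neutrophil markers summed to 321 CPM in BiDT and 84.3 CPM in Ctrl members, with Cxcr2 and Retnlg at 0 in Ctrl members. T cell markers summed to 29.0 CPM in BiDT and 11.2 CPM in Ctrl members with Cd3d, Cd3e and Cd3g at 0 by the rule, and B and plasma cell markers to 18.2 CPM in BiDT and 6.18 CPM in Ctrl members with Mzb1 at 0 in both. Dendritic cell markers summed to 20.7 CPM in BiDT and 33.2 CPM in Ctrl members, and stromal or tumour markers to 24.4 CPM in BiDT and 33.7 CPM in Ctrl members with Krt8 at 0 in both. The part of these depths, shares and markers in the results was not tested, except where a value without the cells concerned is given.

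Members made up 1.69% of filtered BiDT cells (exact interval 1.56 to 1.83%) and 1.06% of filtered Ctrl cells (0.956 to 1.18%), a 1.59-fold higher share (log2 ratio 0.67, interval 0.47 to 0.86). Without the members that held a UMI of the 5 lymphocyte genes, 320 BiDT and 312 Ctrl members were left, 0.930% and 0.957% of cells. The log2 ratio was then -0.042 (interval -0.27 to 0.19). That setting took away 45.0% of BiDT and 10.1% of Ctrl members and left the cells below the line unfiltered. Such UMIs were also more frequent in BiDT cells of other lineages, so this setting cannot decide whether the share differs. With cells of at least 2000 UMIs thinned to that number before the rule was applied, and cells under it left out (22772 BiDT and 27792 Ctrl cells remained), the shares were 1.95% in BiDT and 1.39% in Ctrl, a log2 ratio of 0.49.

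The steps of the rule showed where the libraries parted. Cells with at least 10 C1q UMIs were 14.2% of filtered BiDT cells and 25.9% of filtered Ctrl cells, and those that also had Csf1r were 7.81% in BiDT and 21.3% in Ctrl. By these fixed counts, C1q-high cells as a whole were thus a smaller part of the BiDT library. Filtered cells had a median of 2670 UMIs in BiDT and 4267.5 UMIs in Ctrl. The part of depth in the C1q, Csf1r and Mgl2 steps was not tested. Of these Csf1r-positive cells, 75.4% in BiDT and 30.7% in Ctrl had no Mgl2 UMI. The limit on Arg1 then kept 40.4% of the remaining BiDT cells and 22.9% of the remaining Ctrl cells, and the exclusion of Cd3 took away 131 BiDT and 37 Ctrl cells at the last step. Members were 582 of 2688 C1q-high Csf1r-positive cells in BiDT (21.7%, 20.1 to 23.3%) and 347 of 6956 in Ctrl (4.99%, 4.49 to 5.53%). Csf1r-positive cells with C1q and Mgl2 that met all other criteria, called Mgl2-positive macrophages below, numbered 92 in BiDT and 296 in Ctrl, and those over the Arg1 limit that met all other criteria numbered 912 in BiDT and 1118 in Ctrl. All of these counts follow from the rule and are a description.

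**Figure D1:**
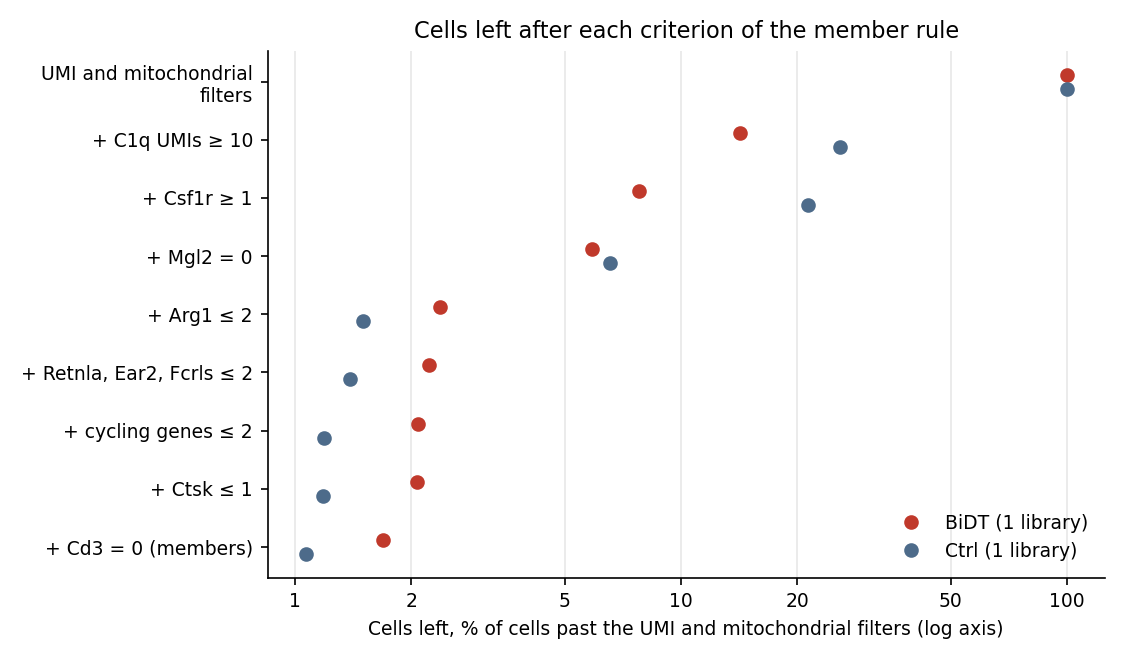
Share of filtered cells left after each criterion of the member rule (log axis, %), for BiDT (red) and Ctrl (blue), 1 library each. BiDT had the smaller share of C1q-high cells (14.2% against 25.9% in Ctrl) and ended with the larger share of members (1.69% against 1.06% in Ctrl).

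The cells fitted the label of macrophages in Adgre1 and Apoe, while Mertk hardly set Ctrl members apart. Adgre1 (the F4/80 antigen) had 221 CPM in BiDT and 124 CPM in Ctrl members, Apoe (apolipoprotein E) 3189 CPM in BiDT and 2062 CPM in Ctrl members, and Mertk, a receptor for the uptake of apoptotic cells, 141 CPM in BiDT and 38.2 CPM in Ctrl members. In all other filtered cells Adgre1 had 53.0 CPM in BiDT and 62.1 CPM in Ctrl. There Apoe had 584 CPM in BiDT and 674 CPM in Ctrl, and Mertk 38.7 CPM in BiDT and 30.1 CPM in Ctrl. Among monocyte genes, Ly6c2 had 1454 CPM in BiDT and 684 CPM in Ctrl members. In other cells it had 1329 CPM in BiDT and 250 CPM in Ctrl. Ccr2 had 181 CPM in BiDT and 443 CPM in Ctrl members, and 268 CPM and 372 CPM in other cells. Flt3, the growth factor receptor of dendritic cells, was at 2.90 CPM in BiDT and 2.81 CPM in Ctrl members, and the B cell gene Cd79a at 0.414 CPM in BiDT and 0 in Ctrl members. Against all other filtered cells of the same library, the 10 genes with the highest mean log2 ratio over both libraries, among genes of at least 100 CPM in members, were Ms4a7, Apoe, Cfb, C1qa, Calhm6, C1qb, Aif1, Cd72, Acp2 and C1qc, with mean ratios of 1.71 to 2.06. C1qa, C1qb and C1qc are genes of the rule, and all 10 are a description, since these cells were chosen on measured values. Cfb, complement factor B, had 337 CPM in BiDT and 219 CPM in Ctrl members, against 108 CPM in other BiDT cells and 43.1 CPM in other Ctrl cells. Aif1, an actin-binding protein of macrophages and microglia, had 1129 CPM in BiDT and 910 CPM in Ctrl members, against 300.1 CPM in other BiDT cells and 289 CPM in other Ctrl cells. Similar macrophages also held these genes. In Mgl2-positive macrophages Cfb had 271 CPM in BiDT and 88.3 CPM in Ctrl, and Aif1 924 CPM in BiDT and 659 CPM in Ctrl. Their Acp2 was at 219 CPM in BiDT and 68.0 CPM in Ctrl, beside 203 CPM and 125 CPM in members.

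The markers other than C1qa, a gene of the rule, were higher in BiDT than in Ctrl members. Ms4a7, a membrane protein of the MS4A family found on macrophages, had 1069.6 CPM in BiDT and 205 CPM in Ctrl members (log2 ratio 2.38). Cd72, a C-type lectin with an inhibitory motif, had 959 CPM in BiDT and 102 CPM in Ctrl members (3.24). Ch25h, the enzyme that makes 25-hydroxycholesterol, had 226 CPM in BiDT and 22.5 CPM in Ctrl members (3.33). Ccl12, a chemokine for monocytes, had 523 CPM in BiDT and 103 CPM in Ctrl members (2.35). In Ctrl, Mgl2-positive macrophages had more Cd72 (165 CPM) and Ch25h (34.9 CPM) than members, and about as much Ccl12 (97.1 CPM), so that in this library these 3 genes did not set members apart. Ms4a7 stood at 598 CPM in BiDT and 86.4 CPM in Ctrl Mgl2-positive macrophages, below members in both libraries. The C1q-high cells over the Arg1 limit had 763 CPM of Ms4a7 in BiDT and 206 CPM in Ctrl, so that in Ctrl it did not set members apart from them. Their Ch25h (232 CPM in BiDT and 40.9 CPM in Ctrl) and Ccl12 (579 CPM in BiDT and 176.5 CPM in Ctrl) were above those of members in both libraries. In BiDT, Mgl2-positive macrophages had more Ch25h (348 CPM) and Ccl12 (792 CPM) than members, and less Cd72 (845 CPM).

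After thinning each cell to 1000 UMIs, Ms4a7 was detected in 46.4% of BiDT and 13.8% of Ctrl members, Cd72 in 49.1% of BiDT and 9.22% of Ctrl members, Ccl12 in 25.4% of BiDT and 8.36% of Ctrl members, and Ch25h in 12.4% of BiDT and 2.02% of Ctrl members. T cells, which should lack these genes and had median depths of 3082 UMIs in BiDT and 3161 UMIs in Ctrl before thinning, had a UMI of Ms4a7 in 2.64% of cells in BiDT and 0.670% in Ctrl, of Cd72 in 4.39% in BiDT and 2.48% in Ctrl, of Ccl12 in 2.77% in BiDT and 0.972% in Ctrl, and of Ch25h in 1.10% in BiDT and 0.268% in Ctrl. Each marker was thus detected in a larger share of members than of T cells of the same library. When the rule was applied at 2000 UMIs per cell, the ratios between the libraries kept their sign and were smaller, at 1.42 for Ms4a7, 2.38 for Cd72, 1.86 for Ch25h and 1.03 for Ccl12. Without members that held lymphocyte UMIs they were 2.35, 3.11, 3.19 and 2.05.

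**Figure D2:**
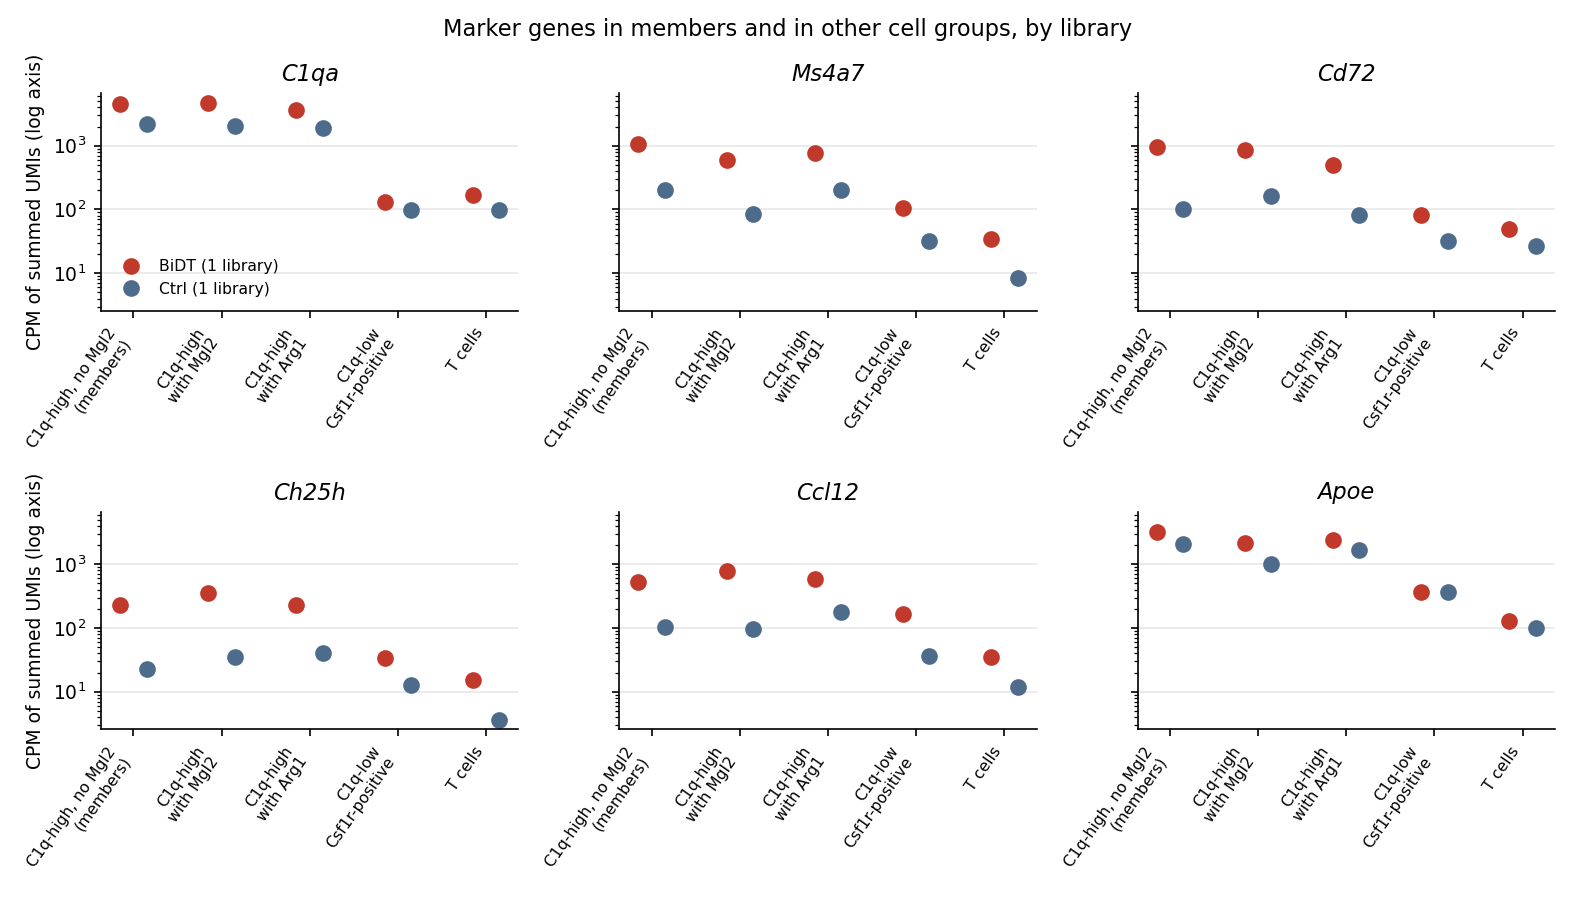
Levels (CPM of summed UMIs, log axis) of the 5 markers and Apoe in members and 4 other cell groups, BiDT (red) left of Ctrl (blue), 1 library each. Members of BiDT had 1069.6 CPM of Ms4a7 and 959 CPM of Cd72, against 205 CPM and 102 CPM in Ctrl members, and in Ctrl the levels of Cd72 and Ch25h were lower in members than in macrophages with Mgl2.

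At the edge of the C1q threshold some markers differed little and others more. BiDT cells with 7 to 9 C1q UMIs that met the other criteria (115 cells) had 208 CPM of Ms4a7, and members with 10 to 12 (80 cells) had 296 CPM. Between the same BiDT cells Apoe stood at 569 CPM just below the threshold and 1429 CPM just above it, and Ch25h at 144 CPM just below and 64.0 CPM just above. In Ctrl, 115 cells just below the threshold had 63.1 CPM of Ms4a7 and 56 just above it 49.3 CPM of Ms4a7. C1q itself spread widely among members, with a median of 27 UMIs in BiDT (10th to 90th percentile 11 to 84.9) and 21 UMIs in Ctrl (11 to 55.8), and C1qa had 4509 CPM in BiDT and 2169.9 CPM in Ctrl members.

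Across all genes, 7450 had at least 50 UMIs over the members of both libraries and were compared, leaving out those of the rule and mitochondrial genes. Of these, 1214 were higher in BiDT (16.3%) and 740 lower (9.93%), and the counting interval excluded a ratio of 1 for 1086 and 669 of them. The median log2 ratio over all compared genes was 0.06. Counts for lists of genes in members below are to be read beside the shares of 16.3% higher and 9.93% lower. With TMM factors (trimmed mean of M-values) in place of totals, every log2 ratio in members shifts by -0.07, which gives 1036 higher and 914 lower genes.

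Of the 10 genes with the highest ratios among those that passed the filters for naming, 6 belonged to the list of type I interferon targets. Ifit1bl1, of the Ifit family of interferon-induced RNA-binding proteins, had 103 CPM in BiDT and 2.25 CPM in Ctrl members (log2 ratio 5.51, interval 4.14 to 7.40), with 4 Ctrl UMIs behind the lower value. Slfn4, a Schlafen gene of myeloid cells, had 1664 CPM in BiDT and 66.3 CPM in Ctrl members (4.65, 4.38 to 4.93), and of the 10 highest it had the most UMIs. Ifit3 had 589 CPM in BiDT and 54.0 CPM in Ctrl members (3.45), and its near-identical neighbour Ifit3b had 151 CPM in BiDT and 5.06 CPM in Ctrl members (4.90), so that reads may be split between them. The others of the 10 highest were Ifi44 (4.29), Siglec1, the sialic acid-binding receptor CD169 of macrophages (3.67), Ifi208 (3.50), Ddx60, a helicase of antiviral sensing (3.44), the transcription factor Pou3f1 (4.58) and Ch25h (3.33). The 10 kept a positive sign in all 20 alternative settings, but not all of these could change it. Changes of the fold or of the UMIs required per gene do not alter a ratio, and a limit of 1000 UMIs per cell selected the same members. Ratios of the 10 in Mgl2-positive macrophages were also positive, such as 6.33 for Slfn4 and 4.76 for Siglec1.

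Of the type I interferon list, 49 of 50 compared genes were higher in BiDT members and 0 lower, with a median log2 ratio of 1.67. Isg15, a ubiquitin-like protein, had 2713 CPM in BiDT and 611 CPM in Ctrl members (2.15), and Bst2 (tetherin) had 2298 CPM in BiDT and 448 CPM in Ctrl members (2.36). Rsad2 (viperin) had 1483 CPM in BiDT and 203 CPM in Ctrl members (2.87), and Irf7, a transcription factor that amplifies the response, had 1318 CPM in BiDT and 168 CPM in Ctrl members (2.97). Components of the signalling complex had smaller ratios, 1.42 for Stat2 and 1.10 for Irf9. Ifi47, at 0.47, was the listed gene that did not reach 1.5-fold. The count stayed at 48 of 50 without members that held lymphocyte UMIs and was 50 of 50 with the rule at 2000 UMIs. The list was also higher in other cells: Mgl2-positive macrophages had 48 of 48 higher (median 2.44), where 17.4% of all compared genes were higher and 15.7% lower, and C1q-low Csf1r-positive cells, with under 10 C1q UMIs, 49 of 50 (1.85), where 11.2% were higher and 9.6% lower. Isg15 stood at 1040 CPM in BiDT T cells and 85.5 CPM in Ctrl T cells.

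**Figure D3:**
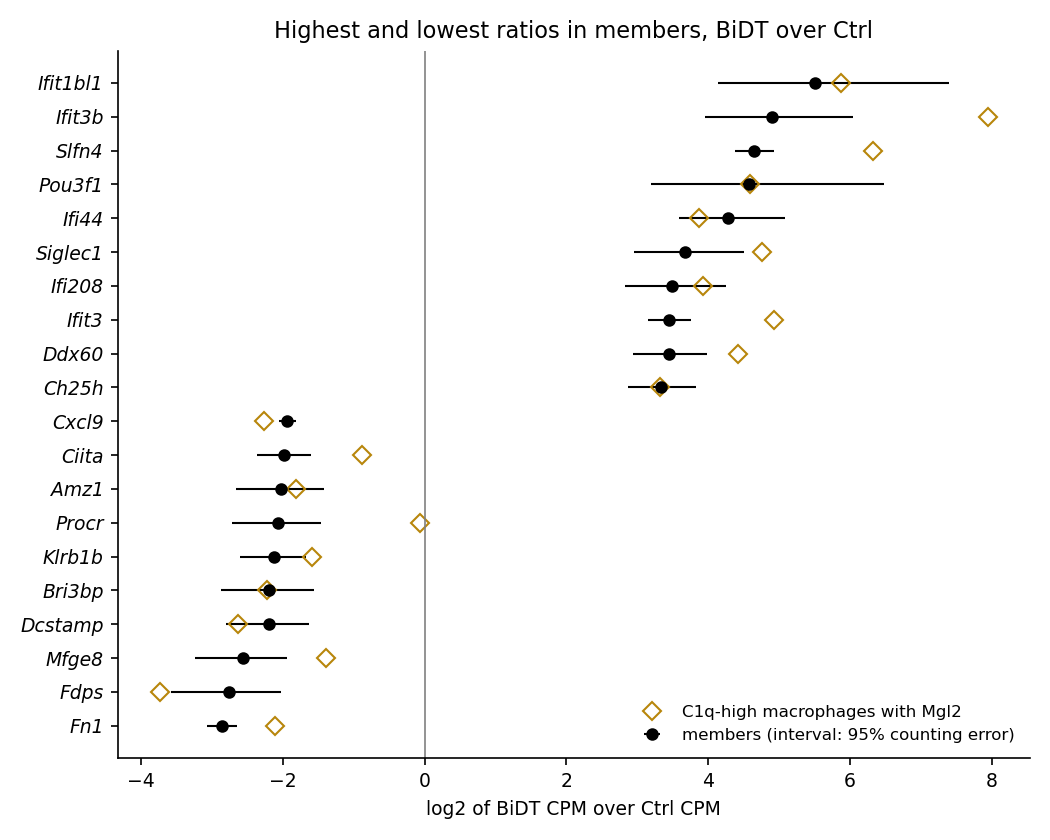
Log2 ratio of BiDT over Ctrl CPM in members (black points, bars are 95% counting intervals) and in Mgl2-positive macrophages (open diamonds, without intervals) for the 10 highest and 10 lowest genes in members, 1 library per group. Interferon-induced genes such as Ifit1bl1 (5.51) stand at the top, and Fn1 (-2.86) and Fdps (-2.76) at the bottom.

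The higher level was spread over most BiDT members. At 1000 UMIs per cell, the listed type I interferon genes gave a median of 23 UMIs in BiDT members (10th to 90th percentile 10 to 39) and 5 UMIs in Ctrl members (1 to 14.4). Of BiDT members, 443 of 582 (76.1%) were above the 90th percentile of Ctrl members. The libraries still overlapped: 62 of 347 Ctrl members (17.9%) were above the 10th percentile of BiDT members, and 10 BiDT members (1.72%) were above the highest Ctrl member, which had 58 UMIs. Slfn4 was detected in 54.98% of thinned BiDT and 5.76% of thinned Ctrl members, against 18.4% of BiDT and 1.34% of Ctrl T cells.

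**Figure D4:**
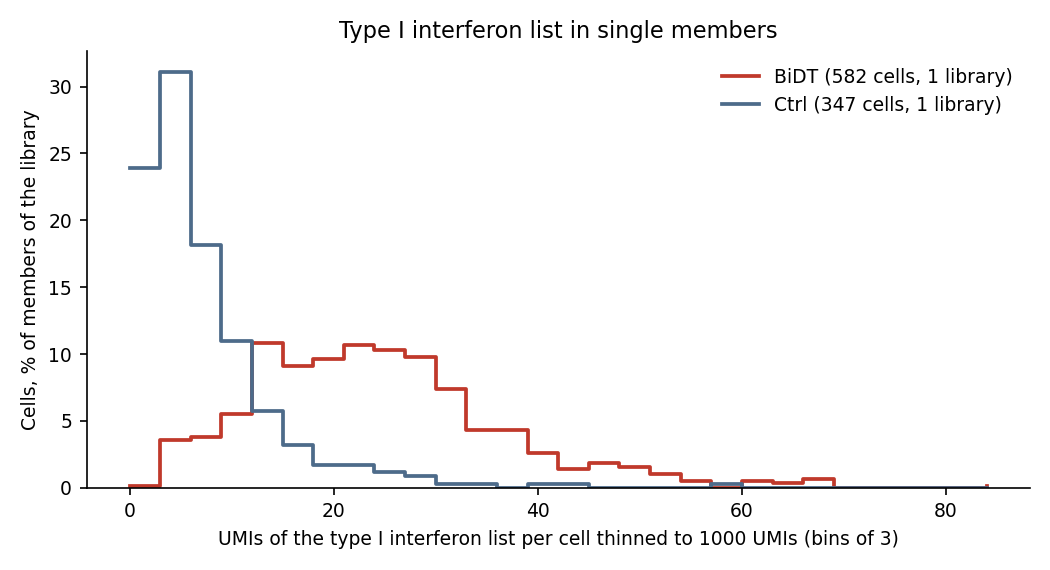
UMIs of the type I interferon list in each member after thinning to 1000 UMIs (x axis, bins of 3), as % of the members of each library (y axis), for 582 BiDT (red) and 347 Ctrl (blue) cells. The BiDT curve lies to the right (median 23 UMIs against 5 in Ctrl), with overlap between them.

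Matches to the ISRE were frequent among the highest genes and in the interferon list. Of the 10 highest genes, 8 had a promoter in the table and 5 held a match (Ifit1bl1, Ifit3b, Ifi208, Ifit3 and Ddx60). None was found in the 6 lowest genes with a promoter or in 4 markers (Ms4a7, Cd72, Ch25h and Ccl12). Ch25h is in both the highest and the marker set. With a match in 4.70% of all compared genes, sets of 6 and 4 would mostly hold none, so these counts tell little. In the type I interferon list, which was made of interferon targets, 23 of 40 matched genes held the motif (57.5%). Among all genes higher in BiDT members it was 99 of 981 (10.1%), among those outside the list 76 of 942 (8.07%), and among lower genes 20 of 603 (3.32%), beside the 4.70% of all compared genes.

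Receptors of interferon and sensors of nucleic acid split. Ifnar1 had 97.3 CPM in BiDT and 98.4 CPM in Ctrl members (-0.01) and Ifnar2 148 CPM in BiDT and 151 CPM in Ctrl members (-0.03), ratios close to 1-fold. The endosomal sensors of nucleic acid were higher: Tlr7 had 65.5 CPM in BiDT and 14.1 CPM in Ctrl members (2.22), Tlr9 26.5 CPM in BiDT and 6.18 CPM in Ctrl members (2.10) and Tlr3 42.3 CPM in BiDT and 10.1 CPM in Ctrl members (2.06). Few Ctrl UMIs lie behind these ratios, 25 for Tlr7 and 11 for Tlr9. The cytosolic DNA sensor Cgas had 35.2 CPM in BiDT and 14.6 CPM in Ctrl members (1.27), while Tmem173, which encodes the adaptor STING, was lower at 63.4 CPM in BiDT and 96.1 CPM in Ctrl members (-0.60). Of 19 compared genes of the receptor and sensing list, 7 were higher and 2 lower (median 0.18).

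The list of interferon gamma targets moved less evenly, with 14 of 24 genes higher and 2 lower (median 0.70). Irgm1, an immunity-related GTPase, had 342 CPM in BiDT and 127 CPM in Ctrl members (1.43), and Il18bp, which binds and blocks interleukin 18, had 172 CPM in BiDT and 47.2 CPM in Ctrl members (1.86). Both lower genes are known as strong targets of interferon gamma: Cxcl9, a chemokine for T cells, had 325 CPM in BiDT and 1247 CPM in Ctrl members (-1.94), and Ciita, the master activator of class II genes, had 32.3 CPM in BiDT and 128 CPM in Ctrl members (-1.98). Cxcl10, a chemokine that type I interferon also induces, had 1484 CPM in BiDT and 922 CPM in Ctrl members (0.69), on the other side of 1-fold from Cxcl9. Cxcl9 was detected in 16.3% of thinned BiDT members and 41.5% of thinned Ctrl members, against 1.69% of BiDT and 3.45% of Ctrl T cells.

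Antigen presentation parted by class. For class I, 9 of 23 genes were higher and 1 lower (median 0.49): H2-K1 had 7228 CPM in BiDT and 3073 CPM in Ctrl members (1.23), H2-D1 5732 CPM in BiDT and 3255 CPM in Ctrl members (0.82) and the nonclassical H2-T22 709 CPM in BiDT and 173 CPM in Ctrl members (2.04), while B2m, the shared light chain, had 6856 CPM in BiDT and 4801 CPM in Ctrl members (0.51) and did not reach 1.5-fold. The lower gene was Calr, a chaperone of peptide loading (-0.94). H2 genes resemble each other and reads may be assigned to more than 1 of them. For class II, 9 of 12 genes were lower and 1 higher (median -1.26). H2-Eb1 had 1533 CPM in BiDT and 5207 CPM in Ctrl members (-1.76), H2-Aa 2276 CPM in BiDT and 6426 CPM in Ctrl members (-1.50), H2-Ab1 3383 CPM in BiDT and 8561 CPM in Ctrl members (-1.34) and Cd74, the invariant chain, 6573 CPM in BiDT and 14971 CPM in Ctrl members (-1.19). H2-DMa, of the peptide editor, had 328 CPM in BiDT and 868 CPM in Ctrl members (-1.40). The higher gene was Lgmn, a lysosomal protease that is in the list for its part in antigen processing (2.0). The count of lower class II genes lay between 8 and 11 in all 20 settings. Per cell, the class II list had a median of 19 UMIs per 1000 in BiDT members (10th to 90th percentile 6 to 48) and 39 UMIs in Ctrl members (12 to 69). In Mgl2-positive macrophages 10 of 14 were lower (median -0.96) and in C1q-low cells 10 of 15 (-0.82).

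Genes of sterol synthesis were lower. Of 13 compared, 12 were lower and 0 higher (median -1.16), and another 12 listed genes had too few UMIs. Fdps, which makes farnesyl diphosphate, had 7.46 CPM in BiDT and 50.6 CPM in Ctrl members (-2.76), Cyp51, a demethylase of lanosterol, 12.4 CPM in BiDT and 42.7 CPM in Ctrl members (-1.78) and Hmgcs1, at the start of the mevalonate pathway, 12.4 CPM in BiDT and 36.5 CPM in Ctrl members (-1.56). Srebf2, the transcription factor that drives these genes, had 32.7 CPM in BiDT and 79.2 CPM in Ctrl members (-1.28), and Insig1, which holds it back when sterols are plentiful, 17.8 CPM in BiDT and 47.8 CPM in Ctrl members (-1.42). The levels are low, with 18 BiDT and 90 Ctrl UMIs behind Fdps. Ch25h, whose product blocks the processing of SREBP proteins, was among the highest genes, as given above, but a link to the sterol genes was not tested. With the rule at 2000 UMIs, 17 of 19 sterol genes were lower (median -1.48). In Mgl2-positive macrophages 15 of 16 were lower (-1.88), and in C1q-low cells 20 of 24 (-0.99).

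In the list of lipid handling 7 of 22 genes were higher and 3 lower (median 0.36). Plin2, the coat of lipid droplets, had 1035 CPM in BiDT and 348 CPM in Ctrl members (1.57). The liver X receptor Nr1h3 had 107 CPM in BiDT and 54.0 CPM in Ctrl members (0.99) and Abcg1, a cholesterol exporter under its control, 168 CPM in BiDT and 79.2 CPM in Ctrl members (1.09). Apoe reached 0.63. The lower genes included Cd9 (-1.29) and Tyrobp (-0.61), an adaptor of myeloid receptors.

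**Figure D5:**
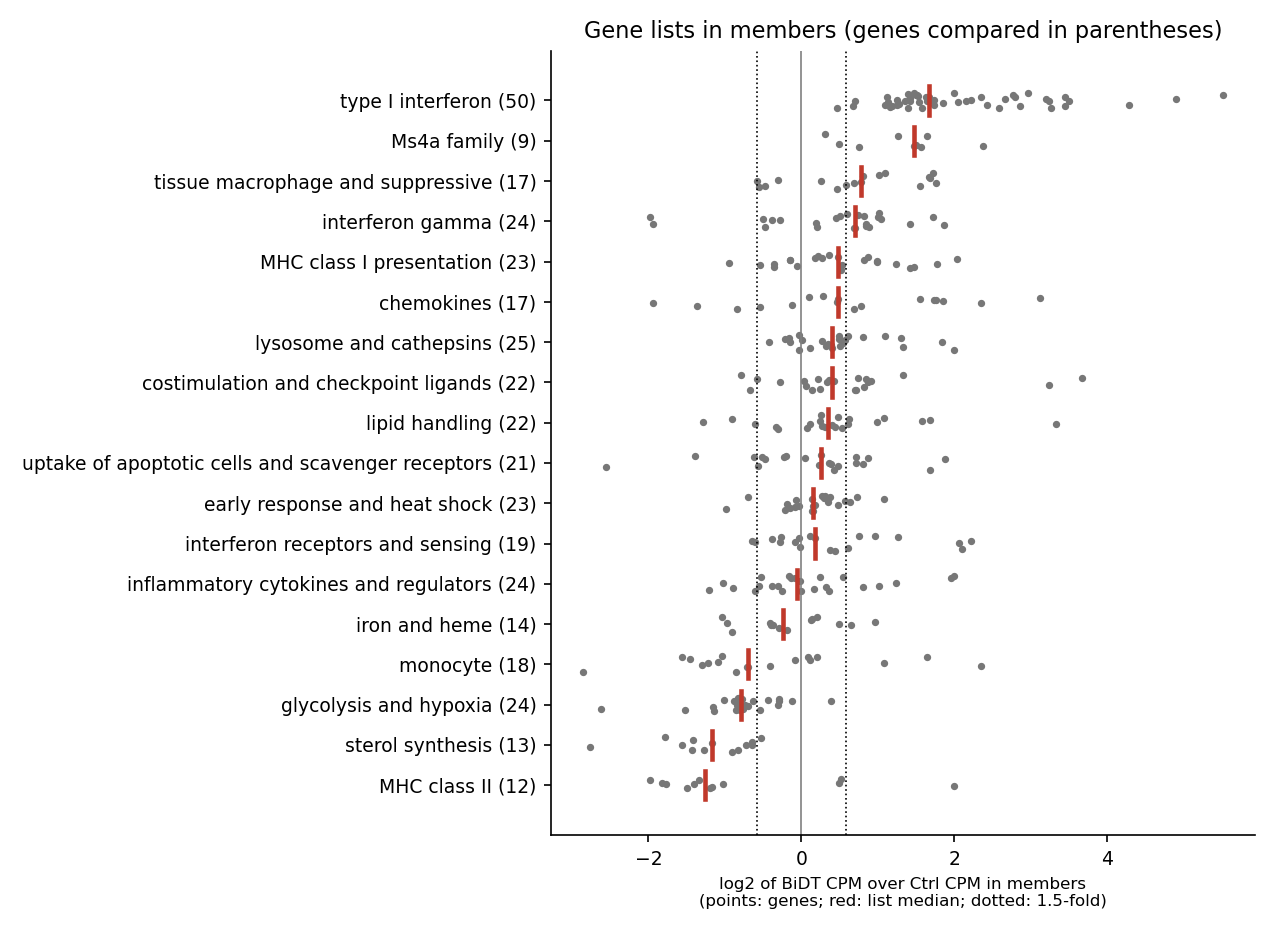
Log2 ratio of BiDT over Ctrl CPM in members for each compared gene (grey points) of the lists named on the y axis, with list medians (red bars) and the 1.5-fold limits (dotted lines), 1 library per group. Type I interferon genes lie almost wholly to the right (median 1.67), and sterol synthesis (-1.16) and class II genes (-1.26) to the left.

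Lysosomal proteases and uptake receptors were in part higher. Lgmn had 2569 CPM in BiDT and 641 CPM in Ctrl members (2.0), Ctsb, cathepsin B, 4084 CPM in BiDT and 1145 CPM in Ctrl members (1.83), Ctsl, cathepsin L, 655 CPM in BiDT and 259.6 CPM in Ctrl members (1.33) and Grn, progranulin, 1548 CPM in BiDT and 624 CPM in Ctrl members (1.31), within a list of which 7 of 25 genes were higher and 0 lower (median 0.40). Ctsb was detected in 87.6% of thinned BiDT and 52.7% of thinned Ctrl members, against 25.7% of BiDT and 21.3% of Ctrl T cells. In Mgl2-positive macrophages 10 of 25 genes of the lysosomal list were higher and 1 lower (median 0.53). C1q-low cells had 3 of 27 higher and 5 lower (0.14). Of the uptake list, 6 of 21 were higher and 3 lower in members (median 0.26). Mertk (1.89) and its ligand Gas6, at 34.4 CPM in BiDT and 10.7 CPM in Ctrl members (1.69), were among the higher, while Axl, a related receptor, had 238 CPM in BiDT and 273 CPM in Ctrl members (-0.20). Mfge8, which bridges dying cells to integrins, was the third lowest named gene, at 10.8 CPM in BiDT and 63.5 CPM in Ctrl members (-2.56), but its ratio was -0.63 with the rule at 2000 UMIs. In that setting Mertk was at 1.08 and Gas6 at 0.64.

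Among Fc receptors, Fcgr1, the high-affinity receptor for IgG, had 651 CPM in BiDT and 278 CPM in Ctrl members (1.23), while the inhibitory Fcgr2b had 611 CPM in BiDT and 1057 CPM in Ctrl members (-0.79) and Fcgr3 430.4 CPM in BiDT and 639 CPM in Ctrl members (-0.57, short of the limit). The complement list beyond C1q held 4 higher and 1 lower of 11 genes (median -0.18). C4b had 120.1 CPM in BiDT and 19.1 CPM in Ctrl members (2.65) and C3ar1, the receptor for C3a, 437 CPM in BiDT and 186 CPM in Ctrl members (1.23), whereas C3 had 441 CPM in BiDT and 620.5 CPM in Ctrl members (-0.49), short of the limit. Of the Ms4a family, 7 of 9 genes were higher and 0 lower (median 1.48). This was shared with other cells: 6 of 6 were higher in Mgl2-positive macrophages (median 2.21) and 8 of 9 in C1q-low cells (1.34). Besides Ms4a7, those with the highest levels in BiDT members were Ms4a6c with 1609 CPM in BiDT and 668 CPM in Ctrl members (1.27) and Ms4a4c with 911 CPM in BiDT and 292 CPM in Ctrl members (1.64).

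Chemokines moved in both directions. Of 17 genes, 8 were higher and 3 lower (median 0.48). In Mgl2-positive macrophages 11 of 18 were higher and 5 lower (median 1.06), and in C1q-low cells 8 of 20 higher and 5 lower (0.24). Ccl7 had 2555 CPM in BiDT and 294 CPM in Ctrl members (3.12), Ccl2 1578 CPM in BiDT and 473 CPM in Ctrl members (1.74) and Ccl8 537 CPM in BiDT and 183 CPM in Ctrl members (1.56), all ligands that attract monocytes. With the rule at 2000 UMIs these ratios were 1.86, 0.64 and 0.97. Ccl4, a chemokine of the CC family, had 2999 CPM in BiDT and 887 CPM in Ctrl members (1.76), and Ccl3 1021 CPM in BiDT and 282 CPM in Ctrl members (1.86). The lower genes were Cxcl9, Cxcl1 (-1.36) and Ccl24 (-0.84). Ccr2, the monocyte receptor for Ccl2, Ccl7 and Ccl12, had 181 CPM in BiDT and 443 CPM in Ctrl members (-1.29). Ccl7 was detected in 62.4% of thinned BiDT and 14.4% of thinned Ctrl members, beside 14.5% of BiDT and 4.46% of Ctrl T cells.

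Genes of monocytes were mixed, with 10 of 18 lower and 3 higher (median -0.70). Fn1, fibronectin, had the lowest ratio of the genes that passed the filters for naming, at 87.8 CPM in BiDT and 636 CPM in Ctrl members (-2.86, interval -3.07 to -2.64). Lyz2, lysozyme, had 2442 CPM in BiDT and 4999 CPM in Ctrl members (-1.03) and S100a4 462 CPM in BiDT and 1269 CPM in Ctrl members (-1.46). Ly6c2, the antigen of inflammatory monocytes and itself responsive to interferon, had 1454 CPM in BiDT and 684 CPM in Ctrl members (1.09). It was detected in 32.8% of thinned BiDT and 27.4% of thinned Ctrl members, beside 62.7% of BiDT and 18.7% of Ctrl T cells. A mixed list of tissue macrophage and suppressive genes had 10 of 17 higher and 0 lower (median 0.78), and another 8 had too few UMIs. Maf, a transcription factor, was at 329 CPM in BiDT and 99.5 CPM in Ctrl members (1.73). The folate receptor Folr2 was at 32.3 CPM in BiDT and 10.1 CPM in Ctrl members (1.68). Summed over the list, the level was nearly equal, at 7581 CPM in BiDT and 7212 CPM in Ctrl members (0.07). Tgfbi, with the most UMIs, was at -0.58, short of the limit. With the rule at 2000 UMIs that list had 6 higher and 3 lower of 21 (median 0.24). Adgre1 then had a ratio of 0.22 in place of 0.84.

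Cytokine genes went both ways, and costimulatory and checkpoint genes were more often higher than lower. Of 24 cytokines and regulators, 5 were higher and 4 lower (median -0.05), beside 16.3% higher and 9.93% lower of all compared genes. The rule at 2000 UMIs changed this to 9 higher and 2 lower of 24 (median 0.47). Mgl2-positive macrophages had 5 higher and 2 lower of 16 (-0.06), and C1q-low cells 9 higher and 2 lower of 26 (0.23). Il1b had 3089 CPM in BiDT and 6259 CPM in Ctrl members (-1.02, but -0.49 with the rule at 2000 UMIs), Ptgs2, which makes prostaglandins, 593 CPM in BiDT and 1104 CPM in Ctrl members (-0.90), Tnf 339 CPM in BiDT and 344 CPM in Ctrl members (-0.02) and Il15, a cytokine for NK and memory T cells, 58.8 CPM in BiDT and 15.2 CPM in Ctrl members (1.95). Of 22 costimulatory and checkpoint genes, 10 were higher and 2 lower (median 0.40), and 8 higher and 1 lower with the rule at 2000 UMIs (median 0.44). Cd274, which encodes PD-L1, had 491 CPM in BiDT and 293 CPM in Ctrl members (0.74), Lgals9, a ligand of TIM3, 177 CPM in BiDT and 93.9 CPM in Ctrl members (0.91) and Cd40 164 CPM in BiDT and 101 CPM in Ctrl members (0.71). Cd86 had 309 CPM in BiDT and 302 CPM in Ctrl members (0.04). Havcr2, the gene of TIM3 itself, had 121 CPM in BiDT and 147 CPM in Ctrl members (-0.28), a ratio within 1.5-fold. The lower genes were Pvr (-0.79) and Pdcd1lg2 (-0.67).

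Glycolysis and hypoxia genes were lower in 17 of 24 and higher in 0 (median -0.79), with Gapdh at 679 CPM in BiDT and 1955 CPM in Ctrl members (-1.53) and Eno1 (enolase) at 225 CPM in BiDT and 501 CPM in Ctrl members (-1.15). With the rule at 2000 UMIs, which changes the depth and also leaves out cells under it, 4 of 24 were lower (median -0.29), Gapdh at -1.33 and Eno1 at -1.06 among them. Iron and heme genes had 2 higher and 3 lower of 14 (median -0.24), with Hmox1 (heme oxygenase) at 387 CPM in BiDT and 198 CPM in Ctrl members (0.96). Among all compared genes 16.3% were higher and 9.93% lower, so the counts of this list and of the next 2 are a description only. Early response and heat shock genes had 3 higher and 2 lower of 23 (median 0.16), and macrophage transcription factors 4 higher and 1 lower of 20 (median -0.05). Bhlhe40 was the lower one at 189 CPM in BiDT and 443 CPM in Ctrl members (-1.23), while Spi1, the factor that defines myeloid cells, had 427 CPM in BiDT and 437 CPM in Ctrl members (-0.03).

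The remaining genes among the 10 lowest were Dcstamp, a fusion protein of osteoclasts and macrophages (-2.20), Bri3bp (-2.19), the lectin-like receptor gene Klrb1b (-2.12), Procr, the receptor of protein C (-2.07), and Amz1 (-2.03). Procr had 12.4 CPM in BiDT and 52.3 CPM in Ctrl members. Its ratio was -0.07 in Mgl2-positive macrophages, where Fn1 had -2.11 and Cxcl9 -2.27. Whether the ratios differ between the macrophage groups was not tested.

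Members were not uniform within a library. Those in which an Ms4a7 UMI was found at 1000 UMIs per cell (270 BiDT and 48 Ctrl cells) had more C1q than those without (312 BiDT and 299 Ctrl cells), with a mean of 12.7 UMIs with and 8.05 without in BiDT, and 10.6 with and 5.39 without in Ctrl. Apoe averaged 3.84 UMIs with and 2.50 without in BiDT, and 5.77 with and 1.35 without in Ctrl. The type I interferon list was nearly level across that split, at 24.1 with and 23.7 without in BiDT and 7.25 with and 6.82 without in Ctrl. Other measures ran opposite ways in the libraries. Lyz2 averaged 1.73 with and 2.2 without in BiDT but 4.98 with and 4.33 without in Ctrl, and the class II list 24.2 with and 22.6 without in BiDT but 35.9 with and 40.7 without in Ctrl. A split by Ly6c2 (191 BiDT and 95 Ctrl members with it) was not level for the interferon list. The list averaged 28.3 with and 21.7 without in BiDT, and 10.9 with and 5.36 without in Ctrl. Members with Ly6c2 had less C1q, at 7.58 with and 11.5 without in BiDT, and 4.6 with and 6.68 without in Ctrl. They had more of the monocyte gene Plac8, at 1.42 with and 0.279 without in BiDT. In Ctrl, Plac8 averaged 1.77 with and 0.456 without. Ccr2 averaged 0.246 with and 0.125 without in BiDT, and 0.768 with and 0.321 without in Ctrl. In splits by Apoe, Cxcl9, Ccl8 and Spp1, members with the gene had less of the interferon list in BiDT, and no single direction in Ctrl. The splits were chosen after values were seen and are a description.

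Ccl8, Spp1 and Apoe were among the 20 genes with the highest variance-to-mean ratio in both libraries. Ccl8 was found in 14.9% of thinned BiDT and 6.63% of thinned Ctrl members, with up to 13 UMIs in 1 cell in BiDT and 11 in Ctrl, and members with it averaged 7.33 UMIs of Apoe in BiDT and 6.61 in Ctrl, against 2.38 without it in BiDT and 1.64 without it in Ctrl. Spp1 (osteopontin) was found in 35.4% of BiDT and 35.7% of Ctrl members, against 32.8% of BiDT and 27.2% of Ctrl T cells, shares close to each other. Gzmc, a granzyme of lymphocytes, was second in BiDT, found in 12.2% of members with up to 37 UMIs in 1 cell.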

How the data were processed

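Live CD45+ cells were sorted from digested MC38 tumours and pooled over 5 replicates into 1 library per group, per the labels' protocols. The authors deposited raw UMI counts for 32589 genes with no normalization. Cell Ranger 7.1.0 and GRCm39 are named per the submitters' processing notes, and a 10x Genomics 3′ workflow per the labels' protocols, but the deposited barcodes do not have the form that Cell Ranger writes, so the counting step is not certain. The 48 symbols borne by several genes were summed.

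Members, gene lists and markers were chosen with earlier results of these data known. Counts were summed over cells per library, given as CPM and set against each other as a log2 ratio, BiDT over Ctrl, whose 95% interval is the exact binomial one given the sum of both counts. Shares have exact Clopper-Pearson intervals, which like all intervals here cover counting error only. A gene was called at 1.5-fold with at least 50 UMIs over both libraries. Named genes were the 10 highest and 10 lowest ratios with at least 50 CPM in 1 library and an interval that excludes 1-fold, without mitochondrial, ribosomal, receptor-segment, predicted and sex-linked genes, genes of the rule and genes below 10% of their level in T, NK, neutrophil or stromal cells. From each list the 2 genes with most UMIs and the 2 with the largest ratios were added. Other list genes are examples chosen after their values were seen. For comparison, T cells had at least 2 Cd3 UMIs, NK cells a UMI of Ncr1 or Klrb1c, neutrophils at least 10 of S100a8 and S100a9, and stromal cells at least 2 of Sox9 and Sparc. C1q-low cells had Csf1r and no Cd3, with no other limit.

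Doublets were not removed for the main values. Scrublet (scanpy 1.11.5) called 0 cells at its own threshold, and a score of 0.15 served as an alternative. Members summed to 2413977 UMIs in BiDT and 1779325 UMIs in Ctrl. Thinning drew UMIs at random per cell. Calculations used Python 3.11.15, numpy 2.4.6, scipy 1.17.1 and pandas 2.3.3, and the gene comparison was tested on simulated data. Alternatives changed the thresholds of the rule, depth, doublets, scaling, filters and the fold. No gene test was run, since each group is 1 library.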

Additional observations from a re-analysis of the deposited data

How the results depend on the processing

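No paired analysis was possible because each group is 1 pooled library. The share of members had log2 ratios of 0.40 with at least 5 C1q UMIs and 0.87 with at least 20. It was -0.042 without members that held lymphocyte UMIs, a setting that filtered members and not the cells below the line. The share kept its main size (0.67) within counting error in 10 other settings. Of these, a limit of 1000 UMIs per cell selected the same cells and could not change it. Over 20 settings the type I interferon count stayed between 47 and 50 genes and the class II count between 8 and 11. Genes higher and lower in BiDT numbered 528 and 334 with at least 200 UMIs, 500 and 194 at 2-fold, and 616 and 398 with members thinned to 1000 UMIs, and with at least 20 UMIs 1877 were higher. Lower sterol genes numbered 7 with at least 20 C1q UMIs, 2 with at least 200 UMIs, 7 at 2-fold and 1 in thinned members, of 11, 3, 13 and 2 compared genes against 13 in the main values. The median of Fc receptors (0.44) turned to -0.050 with the rule at 2000 UMIs and to -0.12 in thinned members, and that of interferon receptors and sensing (0.18) to -0.023 with at least 200 UMIs. The cause of these turns was not tested. The rule at 2000 UMIs also left out cells under that number. The limits on Cd3 and Arg1, the C1q share and the Malat1 share were settings chosen after seeing the data. Of 235 listed or named genes called, 233 kept their direction without members that held lymphocyte UMIs and 231 with the rule at 2000 UMIs, where 194 were still past 1.5-fold. Scrublet scores of 0.15 or more removed 7.56% of BiDT and 2.88% of Ctrl members. Depth limits the rarer genes, and without replicate libraries no difference can be set against variation between animals.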
